A study of Homo sapiens with 60 samples.

Results

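A hot-water extract of Rehmanniae Radix Preparata, the steamed and dried root of Rehmannia used as a tonic in East Asian herbal medicine, was compared at 100 µg/mL with vehicle in SW1783 cells. The comparison took the 3 libraries titled as the medium dose of that extract and the 3 vehicle libraries, 6 of the 60 libraries analysed here, and no measured value was used to choose them. SW1783 is an established human astrocytoma line, so all groups share its genetic background. Every group was treated for 24 h. Vehicle was DMSO, given as 0.1% in the sample labels and as 2% in the description of the series, and the labels of the extract groups name no solvent.

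The study profiled RNA of SW1783 cells after herbal extracts at several doses. Beside the 6 libraries, the low (20 µg/mL) and high (500 µg/mL) doses of the same extract and the 100 µg/mL dose of another hot-water extract, Cnidii Rhizoma (Cnidium rhizome), were used here with 3 libraries each. Every sample title, of vehicle and extracts alike, starts with BatchB. The sample codes start with B1 for vehicle and with 5 for every dose of Rehmannia and Cnidium. The labels do not say what the code marks, so in a comparison with vehicle the extract, its solvent and whatever goes with the code cannot be told apart. Comparisons with the low dose, the high dose and Cnidium stay within the code that starts with 5.

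Prepared Rehmannia root contains sugars and iridoid and phenylethanoid glycosides. Cells can sense plant compounds through the aryl hydrocarbon receptor (AHR), a transcription factor that binds flat aromatic compounds and induces cytochrome P450 genes, and through NRF2, which induces genes of glutathione and thioredoxin metabolism after electrophile stress. The unfolded protein response sets the level of chaperones in the endoplasmic reticulum (ER). In astrocytoma cells these programmes run beside those of hypoxia, growth factor signalling, inflammation and the cell cycle.

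The 6 libraries held 22096893 to 27035522 expected counts each, within the 20604792 to 29609799 of all 60 libraries, and mitochondrially encoded genes took 6.80% to 7.73% of them. Levels below are CPM, read counts scaled to the size of each library. A called gene is one with an adjusted p under 0.05 in edgeR's quasi-likelihood test over all genes tested, and only called genes are said to have risen or fallen. Markers matched the astrocytic label in part: vehicle libraries held VIM at 5854 ± 124, CD44 at 2749 ± 24.1, CHI3L1 at 1267 ± 47.5 and EGFR at 341 ± 13.7 CPM (SD, n = 3). The defining astrocyte genes GFAP, S100B and ALDH1L1 reached at most 0.135 CPM in any of the 6 libraries, and AQP4, the oligodendrocyte gene SOX10 and the microglial gene AIF1 were at 0 in all of them. SLC1A2, SOX2 and OLIG2 did not pass the filter on low counts. Markers of other cell types were present too. In vehicle libraries fibroblast and smooth muscle markers summed to 6909 to 6945 CPM, beside 10293 to 10692 CPM for astrocyte and glioma markers. VIM and CD44 made up most of the latter sum. It therefore says little about the defining astrocyte genes, which were nearly absent. Epithelial markers summed to 242 to 244 CPM, neuron markers to 178 to 179 CPM and microglia and macrophage markers to 165 to 177 CPM.

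Many genes differed by small amounts between extract and vehicle libraries. Of 15845 genes tested, 1788 were called (11.3%), 829 higher (5.23%) and 959 lower (6.05%). The median log2 fold change was 0.26 among genes called higher and -0.15 among genes called lower. A change of at least 1.5-fold was called for 121 genes (0.764%) and one of at least 2-fold for 33 (0.208%). Replicates were close, with a biological coefficient of variation of 0.028. The split by direction moved with the scaling: 46.4% of called genes were higher with TMM factors, and 74.4% of 1829 called genes were higher with library size alone. Without vehicle replicate 1 the count was 1055, with DESeq2 it was 944, and in a fit of all 54 libraries from groups with replicates it was 125, or 512 without the first low-dose Sagunja-tang library in that fit. Over 300 pairs of a named gene and a comparison, the fit of all groups ended the call in 232, and in 139 without the Sagunja-tang library.

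**Figure D1:**
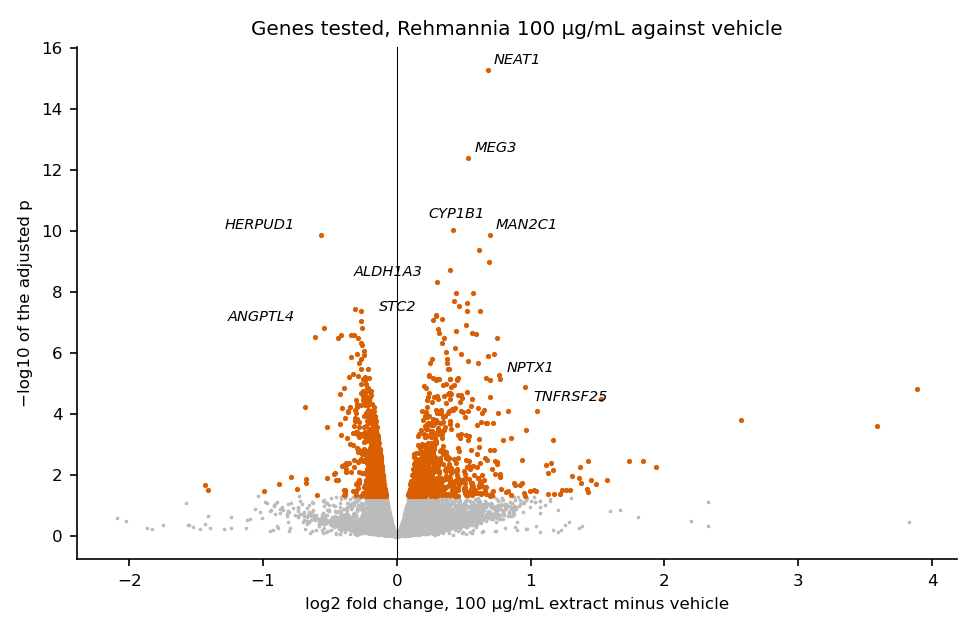
Each dot is 1 of the 15845 genes tested in extract at 100 µg/mL against vehicle, with the log2 fold change on the x axis, minus log10 of the adjusted p on the y axis and the 1788 called genes in colour. NEAT1, MEG3 and CYP1B1 on the right and HERPUD1 on the left stand high on the plot, and most called genes changed by less than 1.5-fold.

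Among genes of at least 5 CPM whose groups did not overlap (in either direction 28.8% of all genes tested had groups that did not overlap), TNFRSF25 rose most. This death receptor of the TNF family was at 2.41, 3 and 3.43 CPM in vehicle and 6.37, 5.17 and 5.47 CPM in extract libraries, a log2 fold change of 0.96 ± 0.14 (SE, edgeR adjusted p = 1.29e-05). The low dose held 6.65, 5.8 and 5.77 CPM and the 13 other medium-dose libraries used here, of other extracts and herbal mixtures, 4.36 to 6.47 CPM, so the vehicle libraries were the low ones. NEAT1 (chr11:65422774-65445540, GRCh38, plus strand), the long noncoding RNA that builds nuclear paraspeckles, was at 278, 290.0 and 294 CPM in vehicle and 464, 440.0 and 473 CPM in extract libraries, a log2 fold change of 0.68 ± 0.03 (SE, edgeR adjusted p = 5.42e-16). It was at 502, 499 and 526 CPM at the low dose, 342, 336 and 347 CPM at the high dose and 405, 386 and 384 CPM with Cnidium. Vehicle was lowest, and the high dose stood below the medium dose (log2 fold change -0.42, edgeR adjusted p = 1.22e-07).

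MAN2C1, which trims free oligosaccharides, had the same order of vehicle and extracts, with 20.6, 21 and 21.2 CPM in vehicle, 32.6, 34.1 and 34.8 CPM at the medium dose, 35.9, 31.2 and 35.7 CPM at the low dose and 29.2 to 34.3 CPM in the other medium-dose libraries. Its log2 fold change against vehicle was 0.69 ± 0.05 (SE, edgeR adjusted p = 1.38e-10). The imprinted long noncoding RNA MEG3 rose from 552, 541 and 567 to 836, 765 and 798 CPM, by 0.54 (edgeR adjusted p = 4.21e-13) on the log2 scale. Its neighbour MEG9, SLC9A3-AS1, IGFN1, the G protein subunit gene GNB3 and the exchange factor gene VAV3 rose by 0.65 to 0.76 on that scale. The pseudogenes STAG3L5P, HERC2P3 and GTF2IP20 and the readthrough genes JMJD7-PLA2G4B and SLX1A-SULT1A3 also rose, but counting can split their reads with near-identical or overlapping genes and their values are uncertain.

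The falls were smaller in size. HERPUD1, which helps clear misfolded proteins from the ER, was at 116, 126 and 128 CPM in vehicle and 86.5, 81.5 and 81 CPM in extract libraries, a log2 fold change of -0.57 ± 0.04 (SE, edgeR adjusted p = 1.38e-10). ANGPTL4, a secreted inhibitor of lipoprotein lipase, was at 21.2, 21.6 and 22.4 and 14.7, 14.4 and 15.5 CPM, a log2 fold change of -0.54 ± 0.06 (SE, edgeR adjusted p = 1.5e-07). The other extracts again lay near the Rehmannia libraries: Cnidium held 86.1, 84.5 and 79.3 CPM of HERPUD1 and 14.5, 13.8 and 15.6 CPM of ANGPTL4. BDKRB1, the inducible bradykinin receptor, fell from 33.4, 33.8 and 34.1 to 24.4, 24.6 and 25.7 CPM (log2 fold change -0.44, edgeR adjusted p = 3.16e-07). HBEGF, a ligand of the EGF receptor, fell from 43, 44.1 and 42.1 to 30.6, 32.9 and 33 CPM (log2 fold change -0.42, edgeR adjusted p = 2.57e-07). The transporter gene SLCO4A1, C7orf25, the adhesion scaffold gene NEDD9, ZSWIM4 and TLNRD1 fell, with log2 fold changes of -0.41 to -0.61. The NEDD9 call was lost without medium replicate 1 or 2 or vehicle replicate 1 and in the fit of all groups, and the fall of the readthrough gene CFAP298-TCP10L, -0.68, is uncertain for the reason given above.

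**Figure D2:**
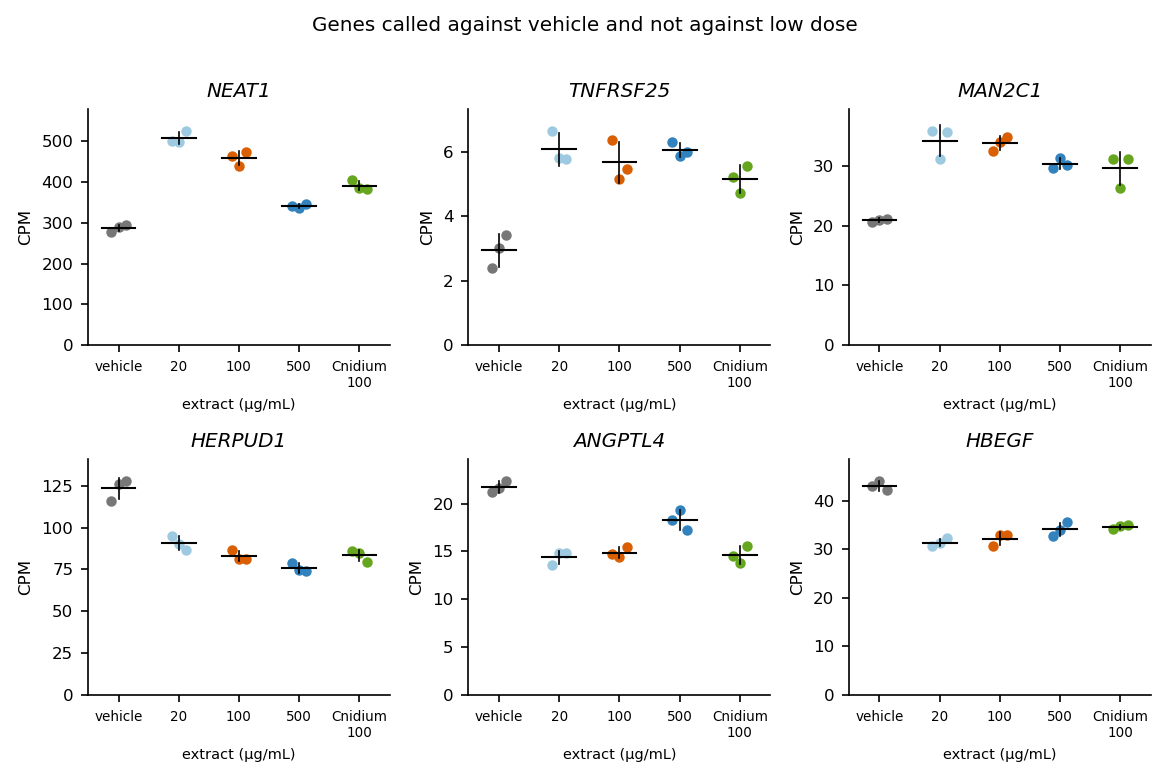
CPM of 6 genes in each library (dots) of vehicle, of Rehmannia at 20, 100 and 500 µg/mL and of Cnidium at 100 µg/mL, with the mean and SD of the 3 libraries in black. For NEAT1 the vehicle libraries lie between 278 and 294 CPM, below every extract library, and for HERPUD1 they lie between 116 and 128 CPM, above every extract library.

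Within the sample code shared by the extracts, far fewer genes were called. Against the low dose, 32 of 15949 genes were called (0.201%), 24 higher (0.15%) and 8 lower (0.0502%). Against Cnidium at the same dose, 32 of 15726 were called (0.203%), 26 higher (0.165%) and 6 lower (0.0382%). Between the high and the medium dose, 207 of 15739 were called (1.32%), 91 higher (0.578%) and 116 lower (0.737%). Replicates spread more here, with a biological coefficient of variation of 0.037, 0.034 and 0.036 in that order, beside 0.028 against vehicle. The part of this spread in the smaller counts was not tested. All of these comparisons share the medium-dose libraries with the comparison against vehicle, so their values are given side by side and none is a check on another. The low-dose count was 18 without medium replicate 1, 21 without low replicate 2, 63 without low replicate 1 and 163 without low replicate 3. The Cnidium count was 13 without Cnidium replicate 2 and 21 or 19 without medium replicate 1 or 3, and the high-dose count was 101 to 114 without any 1 of the medium replicates.

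Some genes rose in steps with dose. They were largely named by their calls or by groups that did not overlap. The separation of their groups thus partly follows from that choice and is not separate support for the steps. Against vehicle, groups did not overlap for 28.8% of all genes tested, and that share is not given for the other comparisons. STC2, a secreted glycoprotein hormone, was at 530.0, 535 and 559 CPM in vehicle, 541, 538 and 548 CPM at the low dose, 640.0, 657 and 655 CPM at the medium dose and 740.0, 782 and 763 CPM at the high dose. Vehicle and low dose overlapped, every medium-dose library was above both, and every high-dose library was above the medium dose. Cnidium, at 513, 540.0 and 528 CPM, did not reach the medium dose of Rehmannia. The log2 fold change of the medium dose was 0.27 ± 0.03 (SE, edgeR adjusted p = 8.21e-08) against vehicle, 0.27 (edgeR adjusted p = 0.000268) against the low dose and 0.31 (edgeR adjusted p = 1.59e-06) against Cnidium, and each of these calls held under the 15 alternative settings tried.

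NPTX1 (chr17:80467148-80477843, GRCh38, minus strand), a secreted pentraxin of neurons, had steeper steps. Its level was 4.31, 4.24 and 5.05 CPM in vehicle, 4.53, 5.68 and 5.17 CPM at the low dose, 7.25, 7.88 and 8.07 CPM at the medium dose and 13.4, 13.8 and 13.4 CPM at the high dose. Vehicle and low dose overlapped, and medium and high doses stood above them and apart from each other. The log2 fold change was 0.77 ± 0.10 (SE, edgeR adjusted p = 7.05e-06) against vehicle, 0.59 (edgeR adjusted p = 0.0103) against the low dose and 0.81 (edgeR adjusted p = 1.1e-06) from medium to high dose. Cnidium held 4.58, 4.71 and 4.79 CPM, lower than medium-dose Rehmannia by a log2 difference of 0.72 (edgeR adjusted p = 0.000246). The call against the low dose was lost without medium replicate 2 or 3 and in the fit of all groups, and the call against Cnidium was lost with DESeq2 and in the fit of all groups. The calls against vehicle and from medium to high dose held under the 15 alternatives.

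VIPR1, the receptor for vasoactive intestinal peptide, was at 3.4, 2.88 and 2.91 CPM in vehicle, 4.64, 4.2 and 4.42 CPM at the low dose, 5.89, 5.91 and 4.44 CPM at the medium dose and 8.5, 8.01 and 8.7 CPM at the high dose. It rose against vehicle by 0.83 ± 0.13 (SE, edgeR adjusted p = 8.03e-05) on the log2 scale. The medium and low doses overlapped and differed by 0.30 (edgeR adjusted p = 0.439), and the high dose was above the medium dose by 0.62 (edgeR adjusted p = 0.00206). These were the 2 called members of 11 tested in the list of neuronal pentraxins, secretin-family receptors and synaptic genes.

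ALDH1A3, which makes retinoic acid, was at 695, 682 and 687 CPM in vehicle, 692, 712 and 734 CPM at the low dose, 832, 848 and 855 CPM at the medium dose and 1018, 1051 and 1062 CPM at the high dose. Its medium dose rose by 0.30 (edgeR adjusted p = 4.67e-09) against vehicle and 0.25 (edgeR adjusted p = 0.000858) against the low dose. IGFBP1, a secreted binder of insulin-like growth factors, was at 21.8, 21.9 and 17.8 CPM in vehicle, 20.9, 20.5 and 21.4 CPM at the low dose, 28.6, 26.6 and 27.6 CPM at the medium dose and 46.3, 49.4 and 43.7 CPM at the high dose. For both genes every medium-dose library was above all vehicle and low-dose libraries, and every high-dose library was above the medium dose. IGFBP1 rose by 0.43 (edgeR adjusted p = 6.51e-05) against vehicle and 0.40 (edgeR adjusted p = 0.000849) against the low dose. The efflux pump gene ABCG2, chosen after its values were seen, was at 32.7, 31.5 and 31.6 CPM in vehicle, 33.9, 34.7 and 35.1 CPM at the low dose, 42.6, 41.8 and 39.6 CPM at the medium dose and 53.3, 50.2 and 50.5 CPM at the high dose. It rose by 0.38 (edgeR adjusted p = 1.65e-06) against vehicle and 0.26 (edgeR adjusted p = 0.0221) against the low dose, the latter lost without low replicate 2 or medium replicate 1 or 2 or in the fit of all groups.

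**Figure D3:**
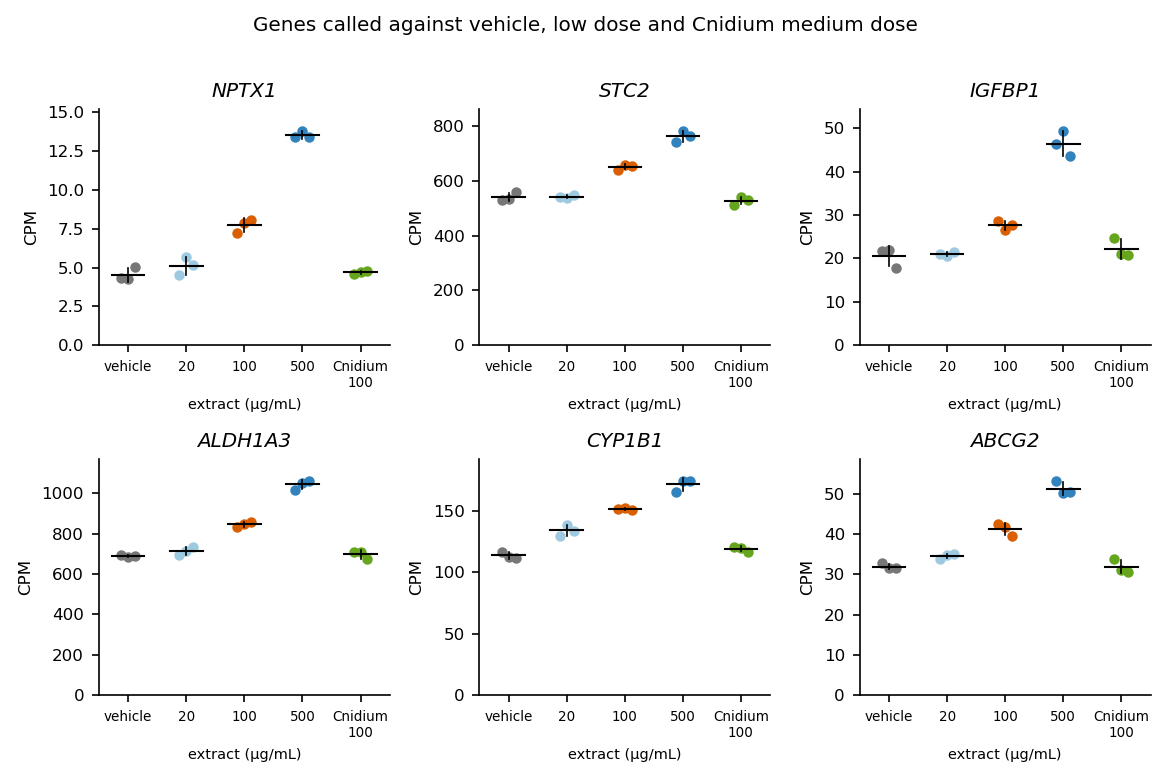
CPM of 6 genes in each library (dots) of vehicle, of Rehmannia at 20, 100 and 500 µg/mL and of Cnidium at 100 µg/mL, with the mean and SD of the 3 libraries in black. Medium-dose libraries of STC2 lie between 640 and 657 CPM, above vehicle, low dose and Cnidium and below the high-dose libraries at 740 to 782 CPM.

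The AHR target list holds genes the receptor is known to induce in other cells. Promoter sequences, here the 250 bases before the first RefSeq start listed for a gene (RefSeq, GRCh38.p14), are shown for the 2 called members that hold the core of the receptor's binding element, GCGTG on either strand, which is in capitals. The CYP1A1 window is chr15:74725529-74725778 on the minus strand and the AHRR window is chr5:321464-321713 on the plus strand.
CYP1A1: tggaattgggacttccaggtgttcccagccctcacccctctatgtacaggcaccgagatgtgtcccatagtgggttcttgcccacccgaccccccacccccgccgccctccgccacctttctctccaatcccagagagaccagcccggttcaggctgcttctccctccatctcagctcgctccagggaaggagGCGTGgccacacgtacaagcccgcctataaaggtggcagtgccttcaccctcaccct
AHRR: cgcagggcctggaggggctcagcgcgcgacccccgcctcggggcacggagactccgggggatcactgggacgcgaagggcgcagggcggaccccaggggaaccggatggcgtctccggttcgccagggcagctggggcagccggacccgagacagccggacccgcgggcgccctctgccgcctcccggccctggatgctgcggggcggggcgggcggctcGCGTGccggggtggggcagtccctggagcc
NQO1, also called, had no match, and CYP1B1 was not in the promoter table. The core was also in the windows of TIPARP (2 matches), which was not called at a log2 fold change of 0.12, and of UGT1A6, which did not pass the filter on low counts. That short core is common: it was in 31.9% of 27305 promoters searched and in 4 of the 9 promoters matched for the list (44.4%). A match is a description and not a bound site.

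Of the 6 AHR targets tested against vehicle, 4 rose and none fell, with a median log2 fold change of 0.30 beside 0.006 over all genes tested, and 1 rose in the fit of all groups. Called higher were 66.7% of them, beside 5.23% of all genes tested. CYP1B1 (chr2:38066973-38109902, GRCh38, minus strand), which oxidises polycyclic hydrocarbons and oestrogens, was at 117, 113 and 112 CPM in vehicle and 152, 153 and 151 CPM in extract libraries, a log2 fold change of 0.42 ± 0.03 (SE, edgeR adjusted p = 9.63e-11). AHRR, the repressor that AHR itself induces, was at 39.4, 40.2 and 40.7 and 51.2, 51 and 51.4 CPM, a log2 fold change of 0.35 ± 0.04 (SE, edgeR adjusted p = 3.16e-07). Groups of both genes stood apart. CYP1A1, the best known target, was near the limit of detection at 0.764, 0.88 and 1.13 CPM in vehicle and 1.44, 1.52 and 1.57 CPM in extract libraries, and rose by 0.71 (edgeR adjusted p = 0.0457). That call was lost with DESeq2, with no filter on low counts, in the fit of all groups and on leaving out any library other than vehicle replicate 3. The fourth called member was NQO1.

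CYP1B1 was at 130.0, 139 and 134 CPM at the low dose and 166, 175 and 175 CPM at the high dose, and AHRR was at 45.7, 41.4 and 43.7 and 60.1, 59.3 and 59.3 CPM. Medium-dose CYP1B1 was above the low dose by 0.18 (edgeR adjusted p = 0.0269) and below the high dose by 0.18 (edgeR adjusted p = 0.00606), the latter lost without medium replicate 3 or in the fit of all groups, and AHRR by 0.23 (edgeR adjusted p = 0.0346) and 0.22 (edgeR adjusted p = 0.00417). Against the low dose 3 of 7 members tested were higher, CYP1B1, AHRR and SERPINB2, but only SERPINB2 kept that call when low replicate 2 or any medium replicate was left out, with limma-voom or in the fit of all groups. Against Cnidium, 3 of 6 were higher, among them CYP1B1 by 0.35 (edgeR adjusted p = 7.19e-07) with Cnidium at 121, 120.0 and 117 CPM. From medium to high dose, 5 of 7 rose. In the fit of all groups the counts against Cnidium and from medium to high dose were 1 each, or 2 and 4 without the Sagunja-tang library.

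Among 21 NRF2 targets, 4 rose against vehicle and 1 fell, with a median log2 fold change of 0.07, and 8 rose with library size alone and 1 in the fit of all groups (2 without the Sagunja-tang library). NQO1, a quinone reductase that AHR also induces, was at 125, 124 and 127 CPM in vehicle, 149, 153 and 144 CPM at the medium dose and 190.0, 207 and 191 CPM at the high dose. It rose by 0.25 (edgeR adjusted p = 2.21e-06) against vehicle and by 0.40 (edgeR adjusted p = 9.96e-07) from medium to high dose. The cystine transporter gene SLC7A11 was at 96.8, 98.1 and 100.0 CPM in vehicle, 93.3, 98.2 and 102 CPM at the low dose, 119, 114 and 115 CPM at the medium dose and 149 ± 5.87 CPM (SD, n = 3) at the high dose. Low dose and vehicle overlapped, and the medium dose was above the low dose by 0.25 (edgeR adjusted p = 0.00378), a call lost without medium replicate 1 or in the fit of all groups. Cnidium, at 119, 108 and 111 CPM, overlapped the medium dose of Rehmannia with a log2 difference of 0.04 (edgeR adjusted p = 0.937). HMOX1, which breaks down heme, was the member that fell (log2 fold change -0.16, edgeR adjusted p = 0.0291), lost without medium replicate 1 or 3 or vehicle replicate 2 or 3, with DESeq2, with library size alone and in the fit of all groups. Between high and medium dose 8 of the 21 rose, or 3 to 5 without high replicate 1 or any 1 of the medium replicates, and none in the fit of all groups (4 without the Sagunja-tang library).

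Several inflammatory genes fell against vehicle and were higher than at the low dose. Of 23 members tested in the list of NF-kB targets and cytokines, 6 fell against vehicle (3 without medium replicate 1) and none rose, and 3 were higher than at the low dose. These are 26.1% lower against vehicle, beside 6.05% of all genes tested, and 13.0% higher than at the low dose, beside 0.15%. In the fit of all groups none was called in either comparison, and without the Sagunja-tang library 3 were called in each. CXCL8, the neutrophil chemokine interleukin-8, was at 12, 11.9 and 9.05 CPM in vehicle, 5.31, 5.04 and 5.43 CPM at the low dose, 7.84, 8.58 and 8.39 CPM at the medium dose and 12.6, 15.7 and 13.9 CPM at the high dose. The medium dose lay below vehicle, above the low dose and below the high dose. Its log2 fold change was -0.41 ± 0.10 (SE, edgeR adjusted p = 0.00524) against vehicle, lost without medium replicate 1 or in the fit of all groups, 0.65 (edgeR adjusted p = 0.00173) against the low dose and 0.77 (edgeR adjusted p = 9.6e-06) from medium to high dose. The other medium-dose libraries ranged from 6.13 to 113 CPM.

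PTGS2, the inducible cyclooxygenase, had the same order, with 85.2, 86.9 and 82.2 CPM in vehicle, 49.6, 51.5 and 53.4 CPM at the low dose, 70.7, 66.8 and 68.8 CPM at the medium dose and 86.8, 89.2 and 91.8 CPM at the high dose. It fell (log2 fold change -0.30, edgeR adjusted p = 1.12e-06) against vehicle and stood above the low dose by 0.42 (edgeR adjusted p = 3.17e-05). LIF, a cytokine of the interleukin-6 family, was at 54.8 ± 3.35, 34.5 ± 3.07, 48.2 ± 3.57 and 74.7 ± 9.29 CPM (SD, n = 3) in the same groups. Its fall against vehicle, -0.19 (edgeR adjusted p = 0.031), was lost without medium replicate 1 or vehicle replicate 1 or 2, with library size alone and in the fit of all groups, and its difference from the low dose was 0.48 (edgeR adjusted p = 0.00223). The monocyte chemokine CCL2 fell (log2 fold change -0.32, edgeR adjusted p = 0.000172), the adhesion molecule ICAM1 (log2 fold change -0.16, edgeR adjusted p = 0.00361) and BIRC3, an inhibitor of cell death (log2 fold change -0.30, edgeR adjusted p = 0.0349). BIRC3 groups overlapped and its call was lost without any 1 of 4 libraries, with DESeq2, with library size alone and in the fit of all groups. IL6 was not called, at -0.02 (edgeR adjusted p = 0.915).

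SERPINB2, a serpin that AHR can induce, was at 43.1, 44.9 and 39.6 CPM in vehicle and 45.9, 50.1 and 42.8 CPM at the medium dose, which overlapped with a log2 difference of 0.13 (edgeR adjusted p = 0.166). It was at 33.3, 34.3 and 33.9 CPM at the low dose, 58.9, 60.5 and 59.7 CPM at the high dose and 32, 33.6 and 35.6 CPM with Cnidium. The medium dose was above the low dose by 0.46 (edgeR adjusted p = 0.000211) and above Cnidium by 0.46 (edgeR adjusted p = 4.62e-05). GREM1, a secreted BMP antagonist, was at 19.1, 19.1 and 18.2 CPM in vehicle, 17.1, 16.1 and 16.2 CPM at the low dose, 21.8, 20.6 and 20.9 CPM at the medium dose and 29.5, 27.3 and 30.2 CPM at the high dose, with the medium dose above the low dose by 0.36 (edgeR adjusted p = 0.00575), lost without low replicate 2 or medium replicate 1 or in the fit of all groups. The scaffold gene AKAP12, chosen after its values were seen, was at 119, 118 and 120.0 CPM in vehicle, 88.6, 86.2 and 89.4 CPM at the low dose, 109, 99.2 and 103 CPM at the medium dose and 98.7, 96.2 and 99 CPM at the high dose. It fell (log2 fold change -0.20, edgeR adjusted p = 0.000155) against vehicle and was higher than at the low dose by 0.24 (edgeR adjusted p = 0.00769), lost without low replicate 2 or medium replicate 1 or in the fit of all groups.

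**Figure D4:**
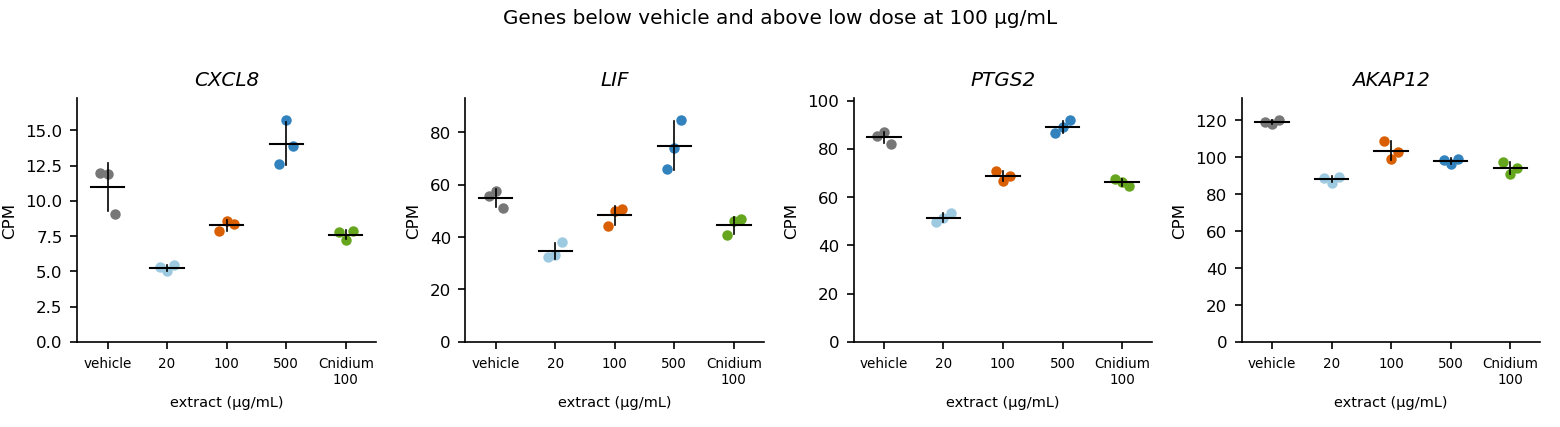
CPM of CXCL8, LIF, PTGS2 and AKAP12 in each library (dots) of vehicle, of Rehmannia at 20, 100 and 500 µg/mL and of Cnidium at 100 µg/mL, with the mean and SD of the 3 libraries in black. Low-dose libraries of CXCL8 lie between 5.04 and 5.43 CPM and medium-dose libraries between 7.84 and 8.58 CPM, both below the vehicle libraries.

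ER chaperone genes share a promoter element, the ER stress element, CCAAT followed by any 9 bases and CCACG, which ATF6 and XBP1 bind together with NF-Y. It was found on either strand in 22 of 27305 promoters (0.0806%) and in 6 of the 19 matched promoters of the ER chaperone list (31.6%), 3 of them of called members. Those 3 are shown, with the element in capitals: HSPA5 (chr9:125241344-125241593, minus strand), HSP90B1 (chr12:103930160-103930409, plus strand, 2 matches) and XBP1 (chr22:28800570-28800819, minus strand).
HSPA5: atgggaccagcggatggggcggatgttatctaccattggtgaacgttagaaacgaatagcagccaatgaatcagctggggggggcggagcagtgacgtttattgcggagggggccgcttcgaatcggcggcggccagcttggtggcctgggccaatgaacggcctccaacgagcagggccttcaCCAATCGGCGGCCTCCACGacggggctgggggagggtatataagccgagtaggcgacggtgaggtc
HSP90B1: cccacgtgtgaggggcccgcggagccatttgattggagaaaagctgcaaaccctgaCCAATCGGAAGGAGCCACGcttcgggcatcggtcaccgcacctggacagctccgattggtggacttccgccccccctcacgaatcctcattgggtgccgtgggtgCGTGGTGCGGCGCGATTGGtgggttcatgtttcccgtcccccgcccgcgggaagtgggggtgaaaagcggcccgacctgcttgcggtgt
XBP1: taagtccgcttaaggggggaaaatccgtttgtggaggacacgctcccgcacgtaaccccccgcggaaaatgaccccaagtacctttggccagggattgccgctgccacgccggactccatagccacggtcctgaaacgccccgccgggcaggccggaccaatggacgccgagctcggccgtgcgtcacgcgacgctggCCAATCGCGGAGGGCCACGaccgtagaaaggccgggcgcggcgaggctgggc
The list's most changed member, HERPUD1, had no match in its window, and CRELD2, CALR and CANX had a match and were not called, at 0.03 (edgeR adjusted p = 0.633), -0.06 (edgeR adjusted p = 0.18) and -0.07 (edgeR adjusted p = 0.144) on the log2 scale.

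Of the 20 members tested, 11 fell against vehicle (55.0%, beside 6.05% of all genes tested) and none rose, with a median log2 fold change of -0.10 beside 0.006 over all genes. The count was 2 in the fit of all groups, or 6 without the Sagunja-tang library. None of the 20 was called against the low dose, where the median log2 fold change was -0.06. Against Cnidium none was called either, and the members differed by -0.06 to 0.06 on the log2 scale. HSPA5, the main ER chaperone, was at 3390.0, 3472 and 3594 CPM in vehicle, 3564, 3337 and 3257 CPM at the low dose, 3187, 3037 and 3025 CPM at the medium dose and 2679, 2620.0 and 2609 CPM at the high dose. It fell (log2 fold change -0.17, edgeR adjusted p = 0.000181) against vehicle and (log2 fold change -0.23, edgeR adjusted p = 0.000297) from medium to high dose. The ER co-chaperone DNAJB9 fell from 39.9, 43 and 42.9 to 33.9, 32.4 and 31.6 CPM (log2 fold change -0.36, edgeR adjusted p = 6.14e-06), and the transcription factor XBP1 from 130.0, 130.0 and 127 to 119, 115 and 108 CPM (log2 fold change -0.17, edgeR adjusted p = 0.000783). HSP90B1, the ER member of the HSP90 family, fell (log2 fold change -0.09, edgeR adjusted p = 0.0416). Between high and medium dose 5 members fell, a count of 1 to 3 on leaving out any library other than high replicate 2, 3 with limma-voom or library size alone, 8 with no filter, 9 with the replicate block and none in the fit of all groups (1 without the Sagunja-tang library).

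Many mitosis genes fell slightly. Of 26 tested, 16 fell against vehicle (61.5%, beside 6.05% of all genes tested) and none rose, with a median log2 fold change of -0.12. The count was 9 without vehicle replicate 1 and 10 with DESeq2 or with library size alone. It was 1 in the fit of all groups, or 7 without the Sagunja-tang library. None of the 26 was called against the low dose, against Cnidium or between high and medium dose. The median log2 fold changes there were 0.0, -0.05 and -0.02. The list summed to 3686 to 3864 CPM in vehicle, 3338 to 3507 CPM at the low dose and 3415 to 3470 CPM at the medium dose. In bulk RNA, fewer cells in mitosis and less of these transcripts per cell cannot be told apart. UBE2C, which marks mitotic proteins for destruction, was at 98.9, 93.1 and 92.5 CPM in vehicle and 80.0, 82.7 and 75.8 CPM in extract libraries, a log2 fold change of -0.25 (edgeR adjusted p = 2.55e-05). The mitotic kinase gene PLK1 was at 170.0, 151 and 157 and 131, 135 and 136 CPM, a log2 fold change of -0.25 (edgeR adjusted p = 3.51e-05), and the proliferation marker MKI67 at 347, 315 and 325 and 300.0, 284 and 291 CPM, a log2 fold change of -0.17 (edgeR adjusted p = 0.000652). TOP2A and BIRC5 were not called, at -0.06 (edgeR adjusted p = 0.124) and -0.03 (edgeR adjusted p = 0.615).

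Of 28 S phase genes, GINS2, RRM2 and CDC6 fell, and GINS2 and CDC6 lost their calls on leaving out single libraries and with library size alone, GINS2 also with DESeq2. In the fit of all groups none of the 3 was called, and without the Sagunja-tang library 3 fell. In the reported fit 10.7% of the list was called lower, beside 6.05% of all genes tested. Regulators of entry into the cell cycle changed as well. CDK6, a kinase that starts the cycle, was at 114, 110.0 and 110.0 CPM in vehicle and 93.9, 85.3 and 86.9 CPM in extract libraries, a log2 fold change of -0.32 (edgeR adjusted p = 2.57e-07). Its partner CCND1, cyclin D1, was at 208, 211 and 213 and 180.0, 183 and 188 CPM, a log2 fold change of -0.20 (edgeR adjusted p = 2.34e-05). The inhibitor CDKN1B rose by 0.22 (edgeR adjusted p = 0.00579). These were the called members among 10 tested, and none was called in the fit of all groups. None of the 10 was called against the low dose, against Cnidium or between high and medium dose.

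Hypoxia targets moved both ways, with 3 of 22 higher and 8 lower (5 lower without vehicle replicate 1). That is 13.6% higher and 36.4% lower, beside 5.23% and 6.05% of all genes tested. In the fit of all groups 1 was higher and 1 lower, or 1 and 4 without the Sagunja-tang library. BNIP3, a mitophagy receptor, was at 118, 120.0 and 119 CPM in vehicle, 113, 113 and 109 CPM at the low dose, 99.5, 103 and 99.4 CPM at the medium dose and 74.7, 78.6 and 73.3 CPM at the high dose. Its log2 fold change was -0.24 (edgeR adjusted p = 6.3e-06) against vehicle and -0.41 (edgeR adjusted p = 7.76e-07) from medium to high dose, and Cnidium held 116, 114 and 115 CPM. CA9, a carbonic anhydrase, fell (log2 fold change -0.21, edgeR adjusted p = 0.00529), lost without vehicle replicate 1 or in the fit of all groups, while VEGFA, the vascular growth factor, and DDIT4, an inhibitor of mTORC1, rose by 0.13 (edgeR adjusted p = 0.00266) and 0.23 (edgeR adjusted p = 0.00208). The third riser was STC2, described above, and the calls of VEGFA and DDIT4 were lost in the fit of all groups. From medium to high dose 2 members were called higher and 4 lower. DDIT4 was lower and ANGPTL4 higher, each opposite to its change against vehicle. BNIP3, CA9 and P4HA1 were lower and STC2 higher, as against vehicle. For that step the fit of all groups called 1 higher and 1 lower. Of 20 genes of glycolysis and glucose uptake, 7 fell and 1 rose, and 4 fell without medium replicate 1 or vehicle replicate 1 and 3 with library size alone. Called lower were 35.0%, above the share of all genes, while the 5.0% called higher did not exceed it. None of the 20 fell in the fit of all groups, with or without the Sagunja-tang library. ALDOA, GAPDH, PKM and LDHA fell, with log2 fold changes of -0.11 to -0.15 (LDHA not without medium replicate 3 or vehicle replicate 1 or with library size alone), and PFKFB4, a regulator of the pathway, rose by 0.30 (edgeR adjusted p = 0.000327). The PFKFB4 call was lost in the fit of all groups, and the gene was called lower from medium to high dose.

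Genes downstream of ERK and TGF-beta signalling fell more often than they rose. Of all genes tested 6.05% were called lower and 5.23% higher. Called lower were 33.3% of the ERK feedback list, 20.0% of immediate early genes and 40.0% of TGF-beta and YAP targets. The shares called higher, 6.67%, 5.0% and 5.0% in that order, were near that of all genes. In the ERK feedback list 5 of 15 fell and 1 rose, with a median log2 fold change of -0.18, and 1 fell in the fit of all groups (4 without the Sagunja-tang library). DUSP5, a phosphatase that acts on ERK, was at 15.3, 17.7 and 15.5 CPM in vehicle and 13.2, 11.2 and 11.6 CPM in extract libraries, a log2 fold change of -0.42 (edgeR adjusted p = 0.000212), and SPRY4 (log2 fold change -0.27, edgeR adjusted p = 0.00169) and EPHA2 (log2 fold change -0.22, edgeR adjusted p = 1.42e-05) fell. The riser, SPRY1, was near the limit of detection at 0.303 ± 0.0496 CPM in vehicle and 0.758 ± 0.159 CPM in extract libraries (SD, n = 3). No member of the list rose with DESeq2, with the filter of 1 CPM or without medium replicate 1 or vehicle replicate 1, and 2 rose with library size alone. Of 20 immediate early genes, 4 fell, among them FOSL1 (log2 fold change -0.27, edgeR adjusted p = 3.51e-06), and EGR1 rose by 0.25 (edgeR adjusted p = 0.0264), lost without medium replicate 3 or vehicle replicate 1 or 3, with DESeq2, with the replicate block and in the fit of all groups. None of the 20 fell in the fit of all groups, and 2 fell without the Sagunja-tang library. Of 20 TGF-beta and YAP targets, 8 fell and 1 rose, and 4 or 5 fell without medium replicate 2, medium replicate 1 or vehicle replicate 2 or with library size alone, and 1 fell in the fit of all groups (2 without the Sagunja-tang library). In the plasminogen system the tissue activator gene PLAT (log2 fold change -0.25, edgeR adjusted p = 8.85e-07), the urokinase gene PLAU (log2 fold change -0.14) and its receptor gene PLAUR (-0.20) fell, and none of these 3 was called in the fit of all groups. CCN2 was not called, at -0.51 (edgeR adjusted p = 0.0953).

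Several long noncoding RNAs and splicing factors rose. Of all genes tested 5.23% were called higher and 6.05% lower. Called higher were 46.7% of the long noncoding RNAs and 30.8% of the splicing regulators tested. The 6.67% of long noncoding RNAs called lower was near that of all genes. Of 15 long noncoding RNAs tested, 7 rose and 1, UCA1, fell, and 4 rose with DESeq2 and 2 in the fit of all groups, with or without the Sagunja-tang library. NEAT1 and MEG3 led the list, followed by SNHG12 at 0.39 (edgeR adjusted p = 8.35e-05), and GAS5 and SNHG1, hosts of small nucleolar RNAs, at 0.14 and 0.15. The SNHG1 call was lost without any 1 of 4 libraries and with limma-voom, the UCA1 call without medium replicate 1 or vehicle replicate 3, and both with DESeq2 and in the fit of all groups. Of 26 splicing regulators 8 rose and none fell, with a median log2 fold change of 0.04. None rose in the fit of all groups, and 5 rose without the Sagunja-tang library. None of the 26 was called against the low dose, against Cnidium or between high and medium dose. RBM5 and RBM6, a pair of neighbouring RNA-binding protein genes, rose by 0.27 (edgeR adjusted p = 6.77e-06) and 0.21 (edgeR adjusted p = 0.000558), the kinase gene CLK2 by 0.28 (edgeR adjusted p = 0.00313) and the spliceosome genes LUC7L, LUC7L3 and PNISR by 0.18 to 0.23 on the log2 scale. The LUC7L call was also lost without medium replicate 1 or vehicle replicate 1 or 2 and with DESeq2.

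The other lists described had at most 6 called members each. Over all genes tested 5.23% were called higher and 6.05% lower. The interferon counts below, 3.7% each way, and the cholesterol and ATF4 counts called higher, 4.17% and 4.35%, did not exceed those shares. Of 5 genes tested in the list of metallothioneins, which bind zinc and copper, and zinc export, 2 fell. These were the metallothionein genes MT1E (log2 fold change -0.39, edgeR adjusted p = 0.000134) and MT1X (log2 fold change -0.33, edgeR adjusted p = 0.000415). Cytosolic heat shock genes fell in 4 of 14, with HSPB1 at -0.23 and HSP90AA1 at -0.14 (2 fell without medium replicate 1 or with library size alone). Of 27 interferon response genes STAT2 rose, by 0.39 (edgeR adjusted p = 3.51e-06), and IFIT3 fell (log2 fold change -0.37, edgeR adjusted p = 0.000619). Of 24 cholesterol synthesis genes 4 fell and 1 rose, and 2 fell with medium replicate 2 or any 1 vehicle replicate left out, with DESeq2 or with library size alone. ATF4 targets fell in 5 of 23 (2 without medium replicate 1 or vehicle replicate 1 or with library size alone), ribosomal protein genes in 5 of 26 (1 without medium replicate 3 or vehicle replicate 1 or with library size alone, 3 without vehicle replicate 2 and 8 with the replicate block) and nucleolar genes in 4 of 15 (2 without medium replicate 1 or 3 or vehicle replicate 1 or 2, with limma-voom or with library size alone). In the ATF4 list 1 member rose, SLC7A11, given above among NRF2 targets, by 0.24 (edgeR adjusted p = 5.43e-06). Of 22 collagen and matrix genes 2 rose and 4 fell, or 2 without vehicle replicate 1 or 3 or with library size alone, and none rose without medium replicate 1. In the fit of all groups the 2 interferon counts were the same and no member of the other lists from metallothioneins to collagen and matrix genes was called. In edgeR none of 24 lysosome genes was called (6 at an unadjusted p under 0.05, none with DESeq2 or limma-voom 1 higher with library size alone and up to 2 lower on leaving out 1 library). None of 26 nuclear-encoded respiratory chain genes was called either (6 at an unadjusted p under 0.05, none with DESeq2, 2 higher with limma-voom, 3 higher with library size alone and up to 5 higher on leaving out 1 library).

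Of the fibroblast and smooth muscle markers, 3 of 8 tested fell: ACTA2, TAGLN and THY1, with log2 fold changes of -0.13 to -0.17. The calls of ACTA2 (without any 1 of 4 libraries) and CLU (without vehicle replicate 1) were lost, and no marker of these 2 lists was called lower in the fit of all groups. The astrocyte and glioma list had 2 of 8 lower, VIM (log2 fold change -0.16, edgeR adjusted p = 0.000218) and CLU, and its summed level was 9601 to 9782 CPM in extract and 10293 to 10692 CPM in vehicle libraries. The part of this shift in the results above was not tested. TXNIP, a glucose-responsive arrestin, had the largest rise between medium and high dose among the genes named, at 8.76, 8.62 and 10.6 CPM at the medium dose and 15.8, 19.4 and 19.2 CPM at the high dose. It rose by 0.97 (edgeR adjusted p = 3.63e-06) between those doses and was not called against vehicle, at -0.04 (edgeR adjusted p = 0.844).

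**Figure D5:**
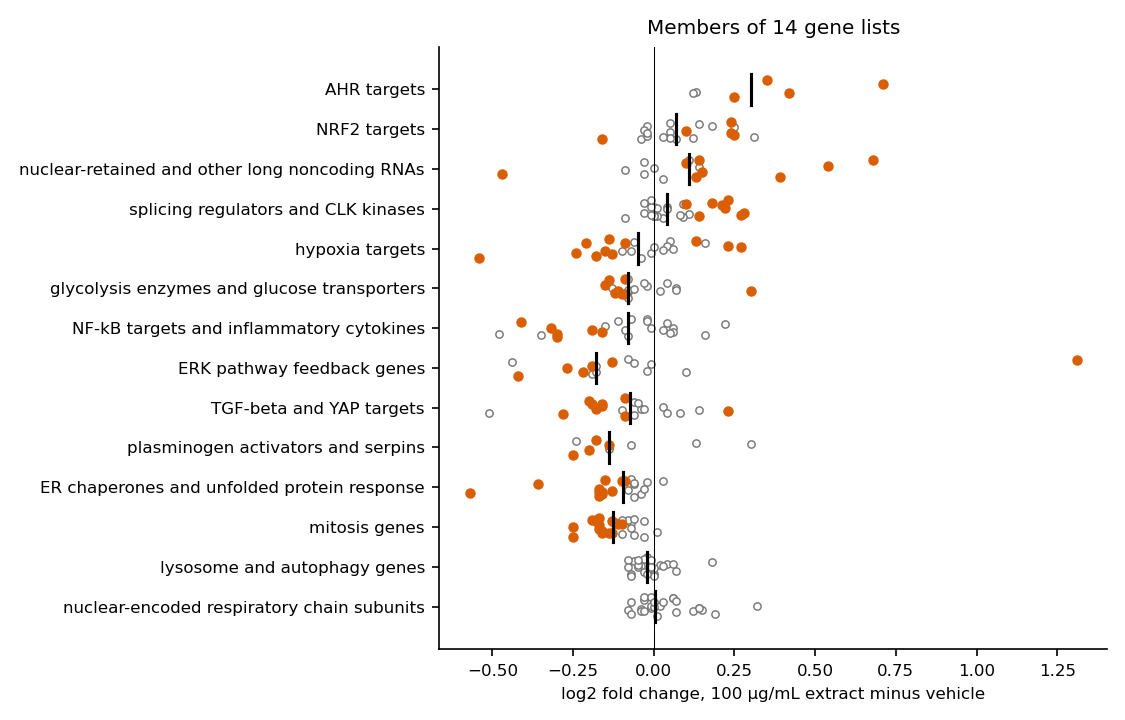
Each dot is a tested member of 1 of 14 gene lists (rows), placed by its log2 fold change in extract at 100 µg/mL against vehicle; filled dots are called members, open dots are not, and black bars are list medians. The mitosis list has 16 members lower and none higher, the ER chaperone list 11 lower and none higher, and the splicing list 8 higher and none lower.

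The genes called higher against vehicle had a median GC content of 52.0% and a median longest transcript of 4451 nt, those called lower 50.4% and 3388 nt, and all genes tested 48.1% and 3366 nt. Protein-coding genes made up 85.4% of the genes called higher, 96.7% of those called lower and 82.8% of all tested. The median level was 23.1, 82.6 and 19.6 CPM in the same order. The part of composition, length and level in the calls was not tested.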

How the data were processed

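RNA of SW1783 cells was sequenced from 60 libraries, and 6 of them (3 of extract at 100 µg/mL, 3 of vehicle) made the main comparison. The deposited table holds expected counts per gene for 60675 genes, made by the authors with RSEM 1.3.3 after STAR 2.7.3a, Trim Galore 0.6.5 and FastQC 0.11.9 on hg38, per the submitters' processing notes. The sources used here do not give the annotation release. Of the values, 90.67% were whole numbers already, and the rest were rounded. A further 219 columns belong to no sample here and were not used. Symbols were matched for 56558 genes, and names or positions from GENCODE 29 for 57055.

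Each comparison was fitted on its own 6 libraries in edgeR 4.0.16 (R 4.3.3) with TMM factors, filterByExpr and the robust quasi-likelihood test, with Benjamini-Hochberg adjustment over all genes tested. Standard errors were derived from the F statistic. CPM used TMM factors over all 60 libraries. The fit was tested on simulated data with changes of 1.15-fold to 2-fold in 50 genes per size. Against vehicle it recovered 52% of 1.15-fold, 56% of 1.25-fold, 92% of 1.5-fold and 96% of 2-fold changes, with 5 false calls. False calls were 17 against the low dose, 7 between high and medium dose and 18 against Cnidium. Changes under 1.15-fold were not simulated. Alternatives were DESeq2 1.42.0, limma-voom (limma 3.58.1), other scalings and filters, all groups in the fit, a replicate block and leaving out each library. The labels do not say that replicates are separate cultures, so p-values measure only the spread between these libraries, which may be technical.

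The comparisons, 38 gene lists and 7 marker lists (722 genes, all found) were chosen with earlier results of these data known. Named genes had an adjusted p under 0.05, at least 5 CPM in the higher group and groups that did not overlap: the 15 largest changes each way against vehicle and the 5 largest each way in the other comparisons. A further 10 were called in the same direction against both vehicle and low dose, with no rule on CPM or overlap. Up to 6 called members of at least 1 CPM per list, list members whose lack of a call is given, and some genes that earlier results name were added. List members beyond these, and ABCG2 and AKAP12, were chosen after their values were seen. Promoters came from RefSeq (GRCh38.p14) and were searched with Python 3.11.15.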

Additional observations from a re-analysis of the deposited data

How the results depend on the processing

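Against vehicle, 1788 genes were called in the reported fit, 944 with DESeq2, 125 with all groups in the fit and 512 when the first low-dose Sagunja-tang library was left out of that fit, and 1055 to 1428 on leaving out 1 library at a time. Scaling by RLE factors (1812) or library size (1829), limma-voom (1557), a filter of 1 CPM in 3 libraries (1795) and no filter (1841) stayed within 1.5 times. Against the low dose, 32 calls became 2 with all groups, 11 without the Sagunja-tang library, 19 with limma-voom, 181 with no filter and 18 to 163 on leaving out 1 library. Between high and medium dose, 207 became 23, 97 without the Sagunja-tang library, 391 with no filter and 101 to 246 on leaving out 1 library. Against Cnidium, 32 became 2, 10 without the Sagunja-tang library, 15 with limma-voom, 72 with no filter and 13 to 44 on leaving out 1 library. The balance of higher and lower calls turned in some settings: against vehicle from 829 higher and 959 lower to 1360 and 469 with library size alone, 104 and 21 with all groups and 299 and 213 without the Sagunja-tang library, and between high and medium dose from 91 and 116 to 103 and 85 with library size alone, 16 and 7 with all groups, 50 and 47 without the Sagunja-tang library, 77 and 75 without high replicate 1 and 60 and 46 without medium replicate 3. No call of a named gene changed sign. The cause of these shifts was not tested.

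Same-numbered libraries of extract and vehicle correlated by 0.037, 0.054 and 0.069 in their deviations from the group means, each more than with any other number, which is a hint from the data and not the design. Same-numbered libraries also correlated most between high and medium dose and against Cnidium, by 0.024 to 0.187. Against the low dose they did not for medium replicates 1 and 2, at -0.047 and -0.031, where another number reached 0.047 and 0.204. With the replicate block the counts were 2292 against vehicle, 47 against the low dose, 320 between high and medium dose and 42 against Cnidium. Depth and 3 libraries a group limit what can be called among genes of low level, such as CYP1A1 and SPRY1.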
